A study of Homo sapiens with 2 samples.

Results

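Ferritin and the genes that bring iron into the cell, export it, sense it and deliver it were followed in C33-A, an established human cervical carcinoma line, with and without an added CA9 gene. The group was defined by name as 10 genes: FTL, FTH1, TFRC, SLC40A1, SLC11A2, IREB2, ACO1, STEAP3, NCOA4 and PCBP1. Members were every probe set that the platform annotation pairs with exactly 1 of these symbols, which gave 20 of 54675 probe sets, for 8 of 19775 named genes. FTH1, the ferritin heavy chain, and IREB2, iron regulatory protein 2, have no such probe set in that annotation and were not analysed here.

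The study compared 2 stable derivatives of C33-A, each with 1 array. One, called CA9 cells here, carries the full-length human cDNA of CA9, the membrane enzyme carbonic anhydrase IX, in a pcDNA3.0 expression vector, and the other, called vector cells, carries the empty vector. Both grew at 5% CO2 in RPMI with penicillin, streptomycin and 10% serum, and RNA was taken on day 4 after seeding. The comparison asks which genes differ between a line made to express CA9 and its vector control. Whether either derivative is 1 clone or a pool is not given in the labels. No probe set is annotated to CA9 in the table used here, so the transgene gives no check of the labels.

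Each line has a single array and so no replicate check. No p-value, standard error or test can be given, line and culture-to-culture spread cannot be told apart, and every value below describes these 2 arrays. Values are array intensities on a linear scale, and a difference is CA9 minus vector on the log2 scale. Within these 2 arrays, the differences of probe sets for the same gene had an SD of 0.31 around their mean, pooled over 6186 genes. That SD measures how far probe sets disagree, and not how far arrays or cultures of a line vary.

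Cells take up iron bound to transferrin through the transferrin receptor, reduce it in the endosome, move it into the cytosol, and store what is not used inside the ferritin shell, which is built from light and heavy chains. When cytosolic iron is scarce, the iron regulatory proteins bind hairpins called iron-responsive elements (IREs). Binding at the start of the ferritin and ferroportin messages blocks their translation, and binding near the end of the transferrin receptor message protects it from decay. Ferritin is therefore controlled largely at the level of protein, which these arrays do not measure, whereas transferrin receptor control acts on the mRNA that they do measure.

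Sequences of the genes at the opposite ends of this circuit are shown because FTL lay farthest below 0 among the members and TFRC, its counterpart in control by iron regulatory proteins, lay above 0. They come from RefSeq, build GRCh38.p14, in which 9 of the 10 genes have a start-site entry (14 entries in all). The first is the stretch of the FTL transcript at chr19:48965337-48965358, on the plus strand in the 5′ untranslated region, which holds the IRE loop, with the loop letters CAGTGN in capitals from base 39 of the transcript. The others are the 250 bases before the FTL start (chr19:48965059-48965308, plus strand) and before the TFRC start (chr3:196082091-196082340, minus strand). Matches on either strand to ACGTG, a form of the hypoxia response element core, are in capitals. Other forms of that core, such as GCGTG, were not searched or marked.
FTL IRE loop: cttgcttcaaCAGTGTttggac
FTL promoter: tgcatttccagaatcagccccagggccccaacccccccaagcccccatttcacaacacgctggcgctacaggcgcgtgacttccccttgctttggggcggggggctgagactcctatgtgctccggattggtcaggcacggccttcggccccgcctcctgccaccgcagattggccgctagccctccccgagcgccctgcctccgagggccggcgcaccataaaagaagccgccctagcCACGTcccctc
TFRC promoter: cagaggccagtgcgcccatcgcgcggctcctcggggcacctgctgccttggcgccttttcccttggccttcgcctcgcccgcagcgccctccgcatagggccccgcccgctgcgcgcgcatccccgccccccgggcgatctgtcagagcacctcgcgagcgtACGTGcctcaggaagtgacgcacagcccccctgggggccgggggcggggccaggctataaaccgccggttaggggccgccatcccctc

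Both promoters hold ACGTG once, FTL on the reverse strand with its first base at position -11 from the start and TFRC on the forward strand at position -88. Of 35116 RefSeq start-site entries, 18.5% hold ACGTG on either strand in the same 250 bases, and among the 14 member entries it was found in these 2. The letters TGACNNNGC of the antioxidant response element, on either strand, were found in the entry of PCBP1 alone among the members and in 10.9% of all entries. The IRE loop letters CAGTGN, on the transcribed strand of the first 50 bases, were found in 6.36% of all entries and among the members in FTL and in 1 entry of NCOA4. Such matches are descriptions of letters, and 6 bases are too few to define a hairpin.

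FTL, the ferritin light chain, which helps to form the iron core inside the shell, was lower in CA9 cells in both of its probe sets. The brighter one measured 2242 in CA9 cells and 3328 in vector cells. The second had 1128 against 1597. The log2 differences were -0.57 and -0.50, that is 1.48-fold and 1.42-fold lower, so the 2 probe sets differed from each other by much less than the SD of 0.31. FTL was the member farthest from 0. Of all 13823 measurable genes, meaning genes brighter than the median probe set (an intensity of 40.8, called the floor below) on at least 1 array, 10.9% lay at least as far from 0. Bright genes scatter less, and among the 1014 genes with a mean intensity above 1000 the share was 2.37%.

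Both FTL probe sets are of the kind named _x_at, whose probes can also bind related sequences. The RefSeq gene table lists 20 FTL pseudogenes and 27 FTH1 pseudogenes by name, so the FTL signal can include other transcripts. The probe set that the annotation gives to FTH1P5, a pseudogene of the heavy chain and no member, was looked at because FTH1 itself had none, and was chosen without a rule. It had 2474 in CA9 cells and 2499 in vector cells, a log2 difference of -0.01. How much of that signal comes from FTH1 was not tested.

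**Figure D1:**
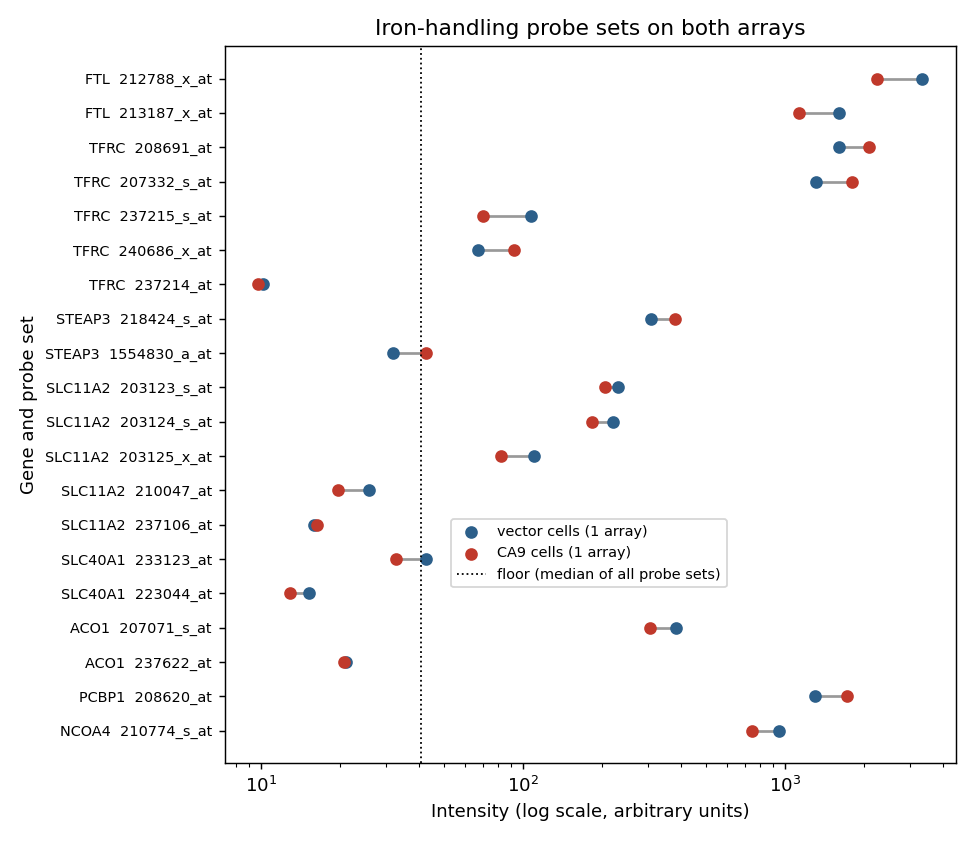
Intensity of each of the 20 member probe sets (log axis, arbitrary units) in CA9 cells (red) and vector cells (blue), 1 array each, with the floor of 40.8 as a dotted line. Both FTL probe sets lie to the left in CA9 cells, whereas the 2 bright TFRC probe sets, both STEAP3 probe sets and PCBP1 lie to the right.

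TFRC, the transferrin receptor that carries transferrin-bound iron into the cell, was higher in CA9 cells in both bright probe sets. Its intensity was 2091 in CA9 cells and 1597 in vector cells in the brightest, and 1803 against 1305 in the next. The differences were 0.39 and 0.47, or 1.31-fold and 1.38-fold. Among bright genes 8.19% lay at least as far from 0 as the brightest TFRC probe set, and among all measurable genes 25.6% did.

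The dimmer TFRC probe sets did not all lie on the same side. One had 92.5 in CA9 cells against 67.1, a difference of 0.46. Another had 70.5 against 107, a difference of -0.60 or 1.52-fold lower. The last probe set was not above the floor on either array, at 9.73 against 10.2. Averaging all 5 therefore brought the TFRC difference down to 0.13.

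STEAP3, the endosomal reductase that turns ferric iron released from transferrin into ferrous iron, was higher in CA9 cells in both probe sets. The brighter had 378 in CA9 cells against 306 in vector cells, a difference of 0.30. In the dimmer probe set CA9 cells, at 42.7, lay just above the floor and vector cells, at 31.95, below it, a difference of at least 1.05-fold against the floor.

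SLC11A2, the transporter DMT1 that moves ferrous iron out of the endosome, was lower in CA9 cells in all 3 probe sets above the floor. The brightest had 205 in CA9 cells against 231 in vector cells, a difference of -0.17. The other two had 182 against 220 and 82.5 against 110, with differences of -0.27 and -0.41. The 2 remaining probe sets lay below the floor on both arrays. Its 1.13-fold difference was the smallest among the members, and 60.8% of measurable genes lay at least as far from 0. After quantile normalization or loess removal the difference of the brightest probe set was -0.07.

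SLC40A1, ferroportin, the known exporter of iron from cells, was close to background in both lines. Its brighter probe set had 32.7 in CA9 cells and 42.7 in vector cells, where alone it passed the floor, and was lower by at least 1.05-fold against the floor. The second had 12.9 against 15.2, below the floor on both arrays. No further difference can be read for the exporter at this signal.

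ACO1 encodes iron regulatory protein 1, which is a cytosolic aconitase when it holds an iron-sulphur cluster and binds IREs when it does not. Its intensity was 304 in CA9 cells and 384 in vector cells, a difference of -0.34 or 1.26-fold lower. The second ACO1 probe set was below the floor, at 20.8 against 21.2. NCOA4, the receptor that takes ferritin to the lysosome for breakdown, had 743 in CA9 cells and 943 in vector cells, also a difference of -0.34. It rests on a single probe set of a kind (_s_at) that can detect several transcripts. Among measurable genes, 31.6% lay at least as far from 0 as ACO1 and 31.0% as NCOA4.

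PCBP1, an RNA-binding protein that also delivers iron to ferritin, was higher in CA9 cells. Its single probe set had 1713 in CA9 cells and 1297 in vector cells, a difference of 0.40 or 1.32-fold. Among bright genes 7.40% lay at least as far from 0. The ferritin light chain and this iron chaperone thus lay on opposite sides of 0. Among relatives of PCBP1 that are not members, PCBP2 had 2462 in CA9 cells against 2451 in vector cells. Its difference was 0.01, or 0.16 averaged over its 6 probe sets. PCBP3 had 78.4 on both arrays, and PCBP4 had 231 against 217 (0.09).

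**Figure D2:**
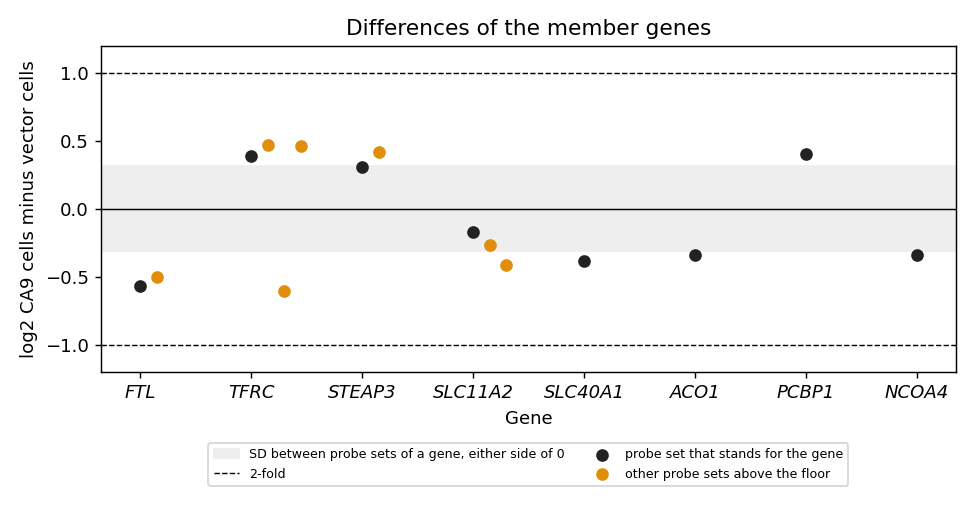
Log2 difference (CA9 cells minus vector cells) of each member probe set above the floor, by gene. Black points stand for the gene, orange points are its other probe sets, and the dashed lines mark 2-fold. The grey band is the SD of 0.31 between probe sets of a gene on either side of 0. It does not measure spread between arrays or cultures of a line. Of the 8 black points PCBP1 and TFRC lie above the band, FTL, SLC40A1, ACO1 and NCOA4 below it and 2 inside it. SLC40A1 is drawn at -0.38 although its CA9 value was below the floor. Against the floor it was lower by at least 1.05-fold only. The lowest point is 1 orange TFRC point at -0.60, and no point reaches 2-fold.

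None of the 8 members was 2-fold higher or lower, against 0.651% of measurable genes that were at least 2-fold higher and 0.694% that were at least 2-fold lower. A count of 0 among 8 is near that background and is not a result about iron handling. Past 1.5-fold the count was also 0 with the values as deposited, against 5.29% of measurable genes higher and 4.74% lower. With equal medians of the arrays FTL, at -0.63, lay past 1.5-fold. Folds ran from 1.13 to 1.48. Of the 8 members 3 were above 0 (TFRC, STEAP3 and PCBP1) and 5 below (FTL, SLC11A2, SLC40A1, ACO1 and NCOA4), and their median was -0.26, while the median of all measurable genes was -0.03 and their SD 0.38. The members' median turned to 0.39 over the 4 members left once _x_at and _s_at probe sets were removed, and was -0.15 with loess removed. Of those 4, STEAP3 and SLC40A1 each rested on a probe set that passed the floor on only 1 array. SLC40A1, whose CA9 value lay below the floor, entered the count of 5 and the median of -0.26 as measured. With the floor at the 75th percentile it was not measurable, and the median of the 7 other members was -0.17. Among the 15 member probe sets above the floor 6 were higher and 9 lower in CA9 cells.

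**Figure D3:**
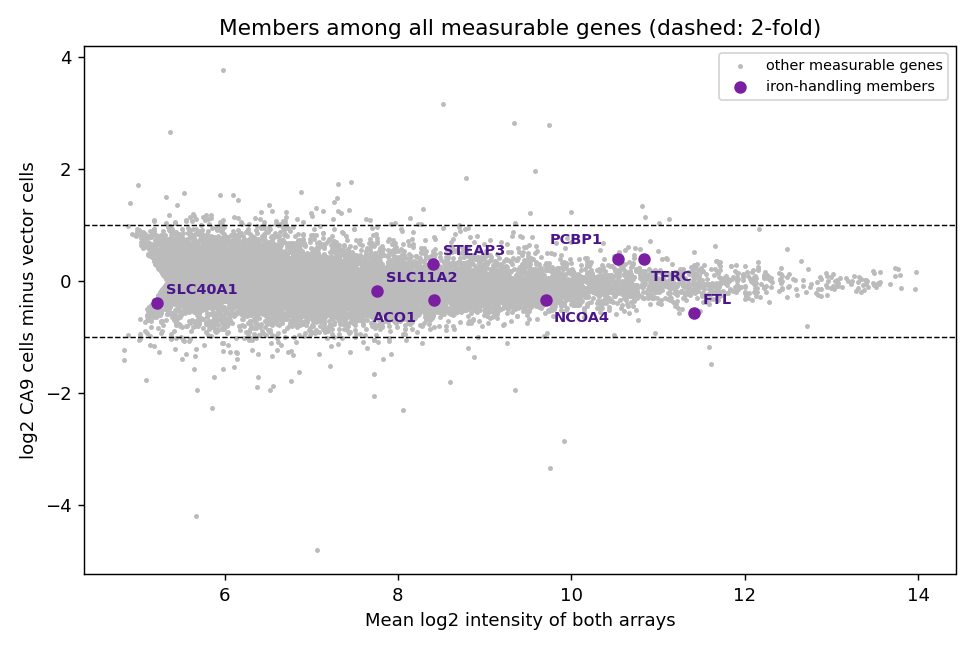
Log2 difference (CA9 cells minus vector cells) against mean log2 intensity for the 13823 measurable genes (grey), with the 8 members in purple and 2-fold as dashed lines. FTL, TFRC and PCBP1 sit among bright genes, where the cloud is narrow (SD 0.23 above a mean intensity of 1000), and SLC40A1 sits at the dim end.

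TFRC and FTL, which iron regulatory proteins control in opposite ways, differed in sign in their bright probe sets. For FTL that control acts on translation, which the arrays do not measure, so the gap in mRNA is not a measure of it. A ratio of changes within the same 2 arrays does not depend on a constant scaling between them. Over the 4 pairs of a bright TFRC with an FTL probe set, the TFRC difference exceeded the FTL difference by 0.89 to 1.04 on the log2 scale, or 1.85-fold to 2.05-fold. Between the probe sets that stand for the genes it was 0.96, and it was 0.66 when all probe sets of a gene were averaged. The 1 dim TFRC probe set at -0.60 lay on the side of FTL. So did SLC11A2, another uptake member, in its 3 probe sets above the floor (-0.17, -0.27 and -0.41). PCBP1 stood as far from FTL, with an excess of 0.97. The TFRC and FTL pair was picked after its values were seen, it has no replicate, and the pattern is described only as a pattern of 2 arrays.

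The wider pathway was read from 7 lists with 116 further genes, of which 98 were measurable. None of the 98 was 2-fold apart, against 1.35% of all measurable genes, 42 were above 0, and their median was -0.03, equal to that of all measurable genes at 2 decimals. Of all measurable genes 45.9% were above 0, or 48.1% with probe sets averaged. In the list of uptake, reduction and the transferrin cycle, 6 of 14 were above 0, with a median of -0.10. With probe sets averaged this list had 7 of 14 above 0 and a median of -0.002. SNX3, a sorting nexin that recycles the transferrin receptor, was its farthest member, at 4000 in CA9 cells against 2602 in vector cells, a difference of 0.62. Its 3 other probe sets had differences of 0.63, 0.78 and 0.45, so all 4 were higher alongside TFRC, although all are named _x_at. LRP1, a large endocytic receptor that takes up haem bound to haemopexin, had 153 against 113, a difference of 0.44, and its second probe set above the floor 0.11.

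Of 10 genes of export and its hormonal control 6 were above 0, with a median of 0.12, which was 0.00 with probe sets averaged. NDFIP1, an adaptor for ubiquitin ligases that act on DMT1, had 904 in CA9 cells against 523 in vector cells, a difference of 0.79. Its other probe sets had 0.52 and -0.58, so they disagreed in sign. BMP6, the ligand that induces hepcidin in liver, had 60.9 against 46.2 (0.40), and another probe set lay on the other side of 0. Of 10 genes of storage, chaperones and ferritin breakdown 5 were above 0 and 4 below, with a median of 0.00. With probe sets averaged, 6 were above 0 and 3 below, with a median of 0.07. ATG9A, an autophagy membrane protein, had 180 against 126 (0.52), and TAX1BP1, an autophagy receptor used in ferritin turnover, had 538 against 645 (-0.26).

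Of 11 genes of iron sensing and IRE-bearing transcripts 2 were above 0 and 9 below, with a median of -0.17, against 45.9% of all measurable genes above 0. With the probe sets of each gene averaged, 4 of the 11 were above 0 and the median was -0.02, so the count depended on the choice of probe set. FBXL5, the iron-binding ligase subunit that marks iron regulatory proteins for breakdown, was farthest from 0, at 153 in CA9 cells against 227 in vector cells, a difference of -0.57. Its second probe set had 51.1 against 65.7, a difference of -0.36, on the same side. RBX1, the RING subunit of the same ligase, had 1138 against 1512, a difference of -0.41. The probe sets of the remaining core subunits disagreed: SKP1 had 0.07 in the probe set that stands for it and -0.36, -0.90 and -0.18 in the others, and CUL1 had -0.23 and 0.38.

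Of 25 genes of mitochondrial iron import and iron-sulphur assembly, 7 were above 0 and 18 below, with a median of -0.07. Of all measurable genes 45.9% were above 0, with a median of -0.03. With probe sets averaged the list again had 7 above 0 and 18 below, and a median of -0.07. SLC25A37, the mitochondrial iron importer mitoferrin 1, had 114 in CA9 cells against 194 in vector cells, a difference of -0.77, but its 10 probe sets disagreed and averaged -0.11. ISCA2, an assembly factor for iron-sulphur clusters, had 433 against 635, a difference of -0.55. Its relative ISCA1 was lower too, at 572 against 777 (-0.44).

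In the list of haem iron release and transport 4 of 10 were above 0, with a median of -0.12. With probe sets averaged, 3 of 10 were above 0, with a median of -0.11. HMOX1, the haem oxygenase that frees iron from haem, had 216 in CA9 cells against 366 in vector cells, a difference of -0.76 or 1.69-fold lower, in its only probe set. BLVRA, biliverdin reductase, which handles the next product of that reaction, had 672 against 928, a difference of -0.47. Of its 4 other probe sets 2 had differences of -0.97 and -0.53, 1 had -0.06 and 1 had 0.29. HMOX2, the constitutive haem oxygenase, had a difference of 0.10.

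The list of iron-dependent lipid peroxidation and its defence had 12 of 18 above 0 and a median of 0.03. HSPB1, a small heat shock protein, had 355 in CA9 cells against 216 in vector cells (0.71). SAT1, a polyamine acetyltransferase, had 76.7 against 47.8 (0.68), while its other probe sets lay below 0. On the other side of 0, GCH1, the entry enzyme of tetrahydrobiopterin synthesis, had 201 against 294 (-0.55). With probe sets averaged, 8 of the 18 were above 0 and the median was -0.04.

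**Figure D4:**
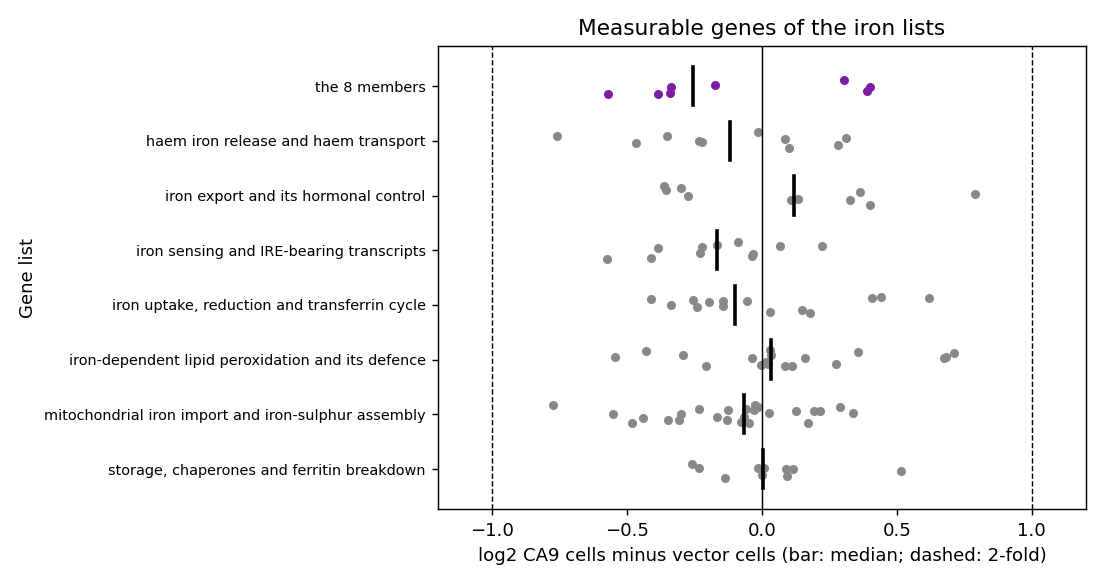
Log2 difference (CA9 cells minus vector cells) of the measurable genes of each iron list, 1 point per gene (spread vertically for legibility), with the median as a bar and 2-fold as dashed lines. The members' median is -0.26, the list medians run from -0.17 (iron sensing) to 0.12 (export and its control), and no point passes 2-fold.

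Facts of the arrays and cells stand beside these values. The hybridisation spike-ins had a median difference of 0.41 with 17 of 18 above 0, the median was -0.20 for the poly-A spike-ins, and all 3 probe sets of 18S ribosomal RNA were lower (-2.15 to -0.92). Their part in the results was not tested. The ACTB 3′ minus 5′ signal was 0.67 in CA9 cells and 0.73 in vector cells. Of 5 epithelial markers, KRT8, at 101 against 68.3, and KRT18 passed the floor on both arrays. KRT19, at 44.7 against 39.4, passed it in CA9 cells only. EPCAM and CDH1 did not on either array, so the markers gave little signal for the epithelial morphology that the labels name. Markers of cells specialised for iron were read in the same way. The summed intensity was 307 in CA9 cells against 304 in vector cells over 4 of 8 erythroid markers in the table, 154 against 176 over 5 of 6 macrophage markers and 371 against 312 over 6 of 6 hepatocyte markers. ALB, CD163, CSF1R and MRC1 were not above the floor on either array. CD14 had 57.1 against 36.9, above the floor in CA9 cells only. PTPRC had 30.1 against 58.1, above it in vector cells only. Of the erythroid markers, HBB had 71.3 against 78.9, ALAS2 62.7 against 64.3, SLC4A1 82.5 against 83.6 and GATA1 90.0 against 76.8. The hepatocyte markers APOA1 (134 against 93.2), TTR (68.6 against 62.4), TF (63.3 against 57.2) and HAMP (55.1 against 42.9) passed the floor on both arrays. SERPINA1, at 36.0 against 41.2, passed it in vector cells only. The part of these markers in the results was not tested either.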

How the data were processed

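Total RNA of 2 cell lines was labelled as biotinylated cRNA from 5 µg and hybridised to Affymetrix arrays, per the labels' protocols. The deposited table holds 1 intensity per probe set and array, made with RMA by the authors, per the submitters' processing notes. The version and settings are not given in the sources used here. The values are linear, as read from their range, and were put on log2 with no pseudocount. Without control probe sets, the median intensity was 41.8 for CA9 cells and 40.02 for vector cells.

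Symbols came from the platform annotation: 41097 probe sets with 1 gene, 1801 with several, which were not named, and 11721 other than controls not listed. Entrez identifiers of 41043 matched the RefSeq gene table (GRCh38.p14). A gene was represented by its brightest probe set (by mean log2 over both arrays) and was measurable if its higher array passed the floor, the median over non-control probe sets (40.8). Where 1 array lay below the floor, the fold is against it. Calls were by size (2-fold). The number of arrays limits the precision.

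Members, lists and markers were chosen with earlier results of these data known. All members were named, with the members past 2-fold of each pathway list or, where fewer than 2 were, its 2 farthest from 0. Other list genes (PCBP2, PCBP3, PCBP4, SKP1, CUL1, ISCA1, HMOX2 and GCH1) were chosen after their values were seen. Alternatives were the mean over probe sets, no _x_at or _s_at probe sets, equal medians, quantile normalization, loess (span 0.3), no floor, a floor at the 75th percentile, a pseudocount of 32 and a 1.5-fold threshold. Counts of the pathway lists with averaged probe sets were added after the data were seen. The code was run on simulated data with planted shifts and noise smaller than the SD of 0.31 between probe sets. That checks the code and not calls made from single arrays. Python 3.11.15, numpy 2.4.6, pandas 2.3.3, statsmodels 0.14.6 and matplotlib 3.10.9 were used.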

Additional observations from a re-analysis of the deposited data

How the results depend on the processing

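Of the 8 members, 7 kept the sign of their difference under every alternative that gave them a value (7 or 8 per gene). Several of these could not have changed a sign. A change of floor leaves the difference of a probe set as it is, and a pseudocount added to both arrays keeps its sign. Averaging also left NCOA4 and PCBP1, with 1 probe set each, unchanged. SLC40A1 lay below the floor in CA9 cells, so no range is given for it. FTL ran from -0.63 to -0.50, TFRC from 0.13 to 0.46, PCBP1 from 0.34 to 0.47, STEAP3 from 0.24 to 0.42, ACO1 from -0.40 to -0.18, NCOA4 from -0.40 to -0.25 and SLC11A2 from -0.24 to -0.07. The 0.42 of STEAP3 came from its dimmer probe set, where vector cells lay below the floor. No alternative, including the 1.5-fold threshold, put a member past its threshold. The 1.5-fold threshold was applied only to the values as deposited. With equal medians FTL, at -0.63, lay past 1.5-fold. Without probe sets named _x_at or _s_at the median of the members was 0.39 in place of -0.26, since 4 members remained. FTL, ACO1, NCOA4 and SLC11A2 had no probe set of any other kind above the floor. In the other alternatives it ran from -0.32 to -0.15. Of 13823 measurable genes 90 were at least 2-fold higher and 96 lower. The counts were 69 and 123 of 13799 with equal medians and 44 and 48 of 11972 with averaged probe sets. They were 56 and 66 of 8516 with the higher floor and 29 and 34 of 13823 with the pseudocount of 32. As shares, the higher floor gave 0.658% and 0.775%, against 0.651% and 0.694% in the main setting. No paired analysis was possible because each line has 1 array. For SLC40A1 and the dim TFRC and STEAP3 probe sets, signal close to the floor limits what can be read.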
